A study of Mus musculus with 20 samples.

Results

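The transcripts of 9 transcription factor genes of the microglia and macrophage lineage, Spi1, Irf8, Maf, Mef2a, Mef2c, Sall1, Runx1, Cebpa and Tfe3, were followed across 20 RNA-seq libraries of mouse brain microglia. The genes were taken as a list of symbols, and each symbol matched 1 of the 54838 gene identifiers in the count files. All 9 held reads in every library and passed the filter on low counts, with which 12680 genes were tested. None of the 9 differed between genotypes at an adjusted p under 0.05. Irf8, Maf, Mef2c and Cebpa stood apart in 4 libraries that detected far more genes than the rest, and those libraries came from 3 of the 5 genotypes.

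Microglia had been sorted by flow cytometry from frontal cortex of mice at postnatal day 40, at 1000 cells per mouse, by high CD11b and low CD45. The groups were hC4A/A with 2 libraries, hC4B/- with 4, hC4A/- with 5, C4-/- with 5 and WT (labelled wild type) with 4. C4 is a complement protein. The names hC4A and hC4B stand for the human isoforms A and B of C4, carried by humanized transgenic mice, and C4-/- for mice without mouse C4. The labels do not state which mouse C4 alleles the hC4A/-, hC4A/A and hC4B/- mice carried, and name no strain, sex, litter or batch. The comparisons address whether the human C4 isoforms, their dose, or loss of mouse C4 go with other levels of these factors in microglia.

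Microglia are the resident macrophages of the brain. They arise from yolk sac precursors that depend on PU.1, the protein of Spi1, and keep their identity through factors that act together on shared enhancers: PU.1 opens chromatin, IRF8, C/EBP, RUNX and MEF2 proteins bind beside it, and SALL1 sets microglia apart from other macrophages. MAF and its relatives restrain proliferation and go with the mature macrophage state, and TFE3 drives lysosome and autophagy genes when it is free to enter the nucleus.

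The libraries held 855099 to 2735181 counts assigned to genes, and Gm10800, a predicted gene that was not studied here, took 9.61% to 65.9% of them. A set of 4 libraries, called broad here, was hC4A/A replicate 2, replicates 2 and 3 of hC4B/-, and C4-/- replicate 3. They detected 27178 to 30907 genes, against 11348 to 23912 in the other 16. They also held reads of 47.6% to 63.6% of the olfactory and vomeronasal receptor genes, against 4.98% to 32.9% in the other 16. The labels were checked by the mouse gene C4b. It held 0 to 2 counts in the libraries labelled WT, and 4 to 428 in the 16 libraries of the other genotypes. Among those 16, the broad libraries held the highest counts, 157 to 428, and the rest 4 to 104. The gap is the reverse of what the labels C4-/- and WT give. Directions between these groups are therefore those between libraries so labelled. The WT libraries also carry file names of another form than all others, and that difference and the genotype cannot be told apart. All 12 microglia markers were detected in every library, with a sum of 4291 to 10114 scaled CPM, where CPM is a count relative to the library total, here scaled by the trimmed mean of M values (TMM). Neutrophil markers summed to 0 to 1424 scaled CPM, with the highest value in WT replicate 2. Border macrophage markers stayed at 4.30 to 101, monocyte markers at 0 to 54.8, lymphocyte markers at 0.687 to 32.8, neuron markers at 1.61 to 115 and endothelial markers at 5.12 to 67.4. Astrocyte markers ranged from 44.2 to 742 and oligodendrocyte markers from 35.4 to 362. Slc1a3 and Cnp made up most of these sums, with medians of 350 and 114. The next highest medians of their lists were 3.58 (Gja1) and 7.62 (Mag).

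All levels below are scaled CPM. Counts were made without regard to strand and with no molecular identifiers. Maf, Mef2a, Runx1 and Cebpa share 440, 302, 106 and 51 exonic bases with the opposite-strand genes Gm15655, Lysmd4, Gm26626 and Gm45091. Reads in these bases therefore cannot be assigned by strand. Ambiguous reads were listed apart, at 0.897% to 5.86% of those listed, so reads in these bases may be missing from the counts. The separately counted reads of these partners came to 0, 82, 25 and 33 counts over all 20 libraries, which does not measure the reads in shared bases. In bulk RNA from sorted cells, fewer cells that express a gene and less RNA per cell cannot be told apart. Beyond the count of cells per mouse, no label says that replicates are separate mice or litters, so p-values measure the spread between these libraries.

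The promoters of Irf8, Mef2c, Sall1 and Cebpa are shown as those of genes with low values (Irf8 and Mef2c) or high values (Sall1 and Cebpa) in the broad libraries. Maf and Spi1 had no entry in the promoter table. Each is the 250 bases before the RefSeq start on GRCm38.p6, 5′ to 3′ on the gene's strand, with each CpG in capitals. Irf8 lies on the plus strand at chr8:120736108-120736357, Mef2c on the plus strand at chr13:83503784-83504033, Sall1 on the minus strand at chr8:89044163-89044412 and Cebpa on the plus strand at chr7:35119043-35119292.
Irf8: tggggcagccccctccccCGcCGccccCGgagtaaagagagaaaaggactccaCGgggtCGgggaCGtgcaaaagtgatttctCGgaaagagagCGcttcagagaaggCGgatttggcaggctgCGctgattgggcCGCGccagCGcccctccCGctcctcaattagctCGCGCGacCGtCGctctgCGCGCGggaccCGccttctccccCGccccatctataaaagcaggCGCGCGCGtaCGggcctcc
Mef2c: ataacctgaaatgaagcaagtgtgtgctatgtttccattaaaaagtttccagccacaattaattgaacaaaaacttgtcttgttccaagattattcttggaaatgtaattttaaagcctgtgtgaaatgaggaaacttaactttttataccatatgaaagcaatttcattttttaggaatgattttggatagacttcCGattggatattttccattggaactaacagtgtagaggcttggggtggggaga
Sall1: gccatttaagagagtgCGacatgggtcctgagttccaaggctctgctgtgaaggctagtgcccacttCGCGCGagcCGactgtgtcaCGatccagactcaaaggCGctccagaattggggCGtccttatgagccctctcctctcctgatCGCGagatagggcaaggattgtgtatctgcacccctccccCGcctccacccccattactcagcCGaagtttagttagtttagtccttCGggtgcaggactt
Cebpa: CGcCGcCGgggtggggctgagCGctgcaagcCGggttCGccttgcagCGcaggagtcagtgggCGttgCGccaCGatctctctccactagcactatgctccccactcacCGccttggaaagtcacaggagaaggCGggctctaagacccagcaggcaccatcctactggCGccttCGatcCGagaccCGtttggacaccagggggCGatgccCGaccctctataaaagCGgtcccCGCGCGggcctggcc

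The 250 bases before Irf8 held 29 CpG, those before Cebpa 22, before Mef2a 21 and before Sall1 13, against a median of 6 over 32851 RefSeq promoters. Shorter windows held 14 CpG before Tfe3 (247 bases) and 0 before Runx1 (175 bases). The Mef2c window held 1 CpG, and 18.8% of all windows held as few. At least 13 CpG stood in 31.5% of all windows. Windows of 300 bases, to 50 past the start, were available for 7 of the 9 genes and were searched on both strands for 1 motif per factor family, and no matches overlapped. PU.1 (GAGGAAGT), IRF (GAAA repeated after 2 bases), MAF (TGCTGAC) and C/EBP (TTGCNNAA) motifs matched in none of the 7, and in 3.20%, 3.44%, 4.67% and 10.8% of all windows. MEF2 (CTA and TAG 4 bases apart), found in 3.69% of all windows, matched in Mef2a. RUNX (TGTGGT), found in 16.8% of all windows, matched in Runx1 and Tfe3. The TFE motif (CACGTG), found in 7.15% of all windows, matched in Runx1.

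The genes differ in structure. Cebpa is a single exon block that fills its whole span on chromosome 7. Maf has 3 exon blocks and Sall1 has 4, on chromosome 8, where Irf8 with 11 also lies. Spi1 has 7 on chromosome 2, Tfe3 has 8 on chromosome X and Runx1 has 9 on chromosome 16. Mef2a has 13 on chromosome 7 and Mef2c has 21 on chromosome 13.

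Per kilobase of annotated exon, which counts every exon of every isoform, Maf was the most abundant of the 9 transcripts and Cebpa the least. The ranks and counts below depend on this length. The longest transcript holds 3469 of 7055 exon bases for Irf8, 6360 of 8241 for Maf and 5538 of 14681 for Mef2a. It holds 5861 of 12025 for Runx1 and all 5265 for Sall1. Levels per longest transcript were not computed. Over the 16 other libraries Maf averaged 129.8 ± 31.6 scaled CPM per kilobase (SD, n = 16) and Irf8 77.8 ± 33.8, and Maf exceeded Irf8 in 14 of the 16. Mef2c averaged 40.1 ± 8.69, Spi1 32.3 ± 19.02, Mef2a 27.5 ± 6.73 and Sall1 22.8 ± 8.08 scaled CPM per kilobase. Irf8 exceeded Mef2c in all 16 libraries, whereas Mef2c exceeded Spi1, and Spi1 exceeded Mef2a, in only 10, so the order of these 3 neighbours did not hold beyond their spread. Runx1 averaged 12.97 ± 5.54, Tfe3 6.83 ± 3.68 and Cebpa 3.66 ± 2.68 per kilobase. Sall1 exceeded Runx1 in 15 libraries, and Runx1 exceeded Tfe3 and Tfe3 exceeded Cebpa in 13 each. In the 4 broad libraries Sall1 came first with 53.8 ± 19.2, followed by Maf with 34.5 ± 24.5 and Irf8 with 20.2 ± 6.72, and Runx1 came last with 5.96 ± 1.76.

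**Figure D1:**
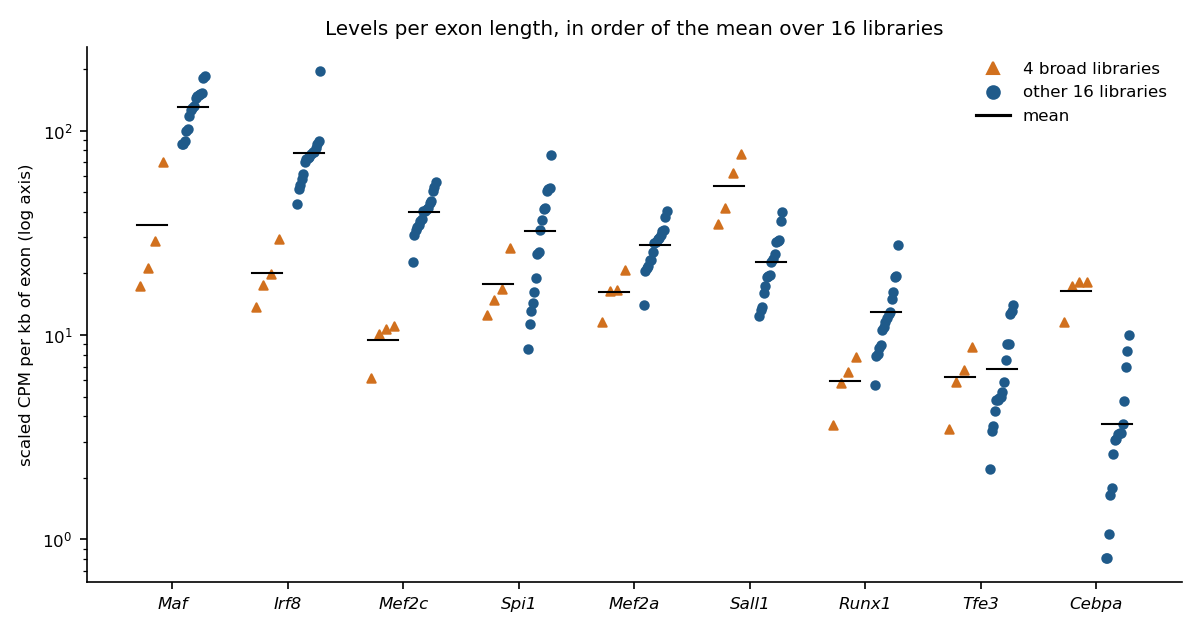
Scaled CPM per kilobase of exon (log axis) of the 9 genes in each library, ordered by the mean over the 16 other libraries. Triangles are the 4 broad libraries, circles the other 16 and bars the means. Maf and Irf8 lead among the 16 libraries, at means of 129.8 and 77.8, and Sall1 leads in the broad ones at 53.8.

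Spi1 encodes PU.1, the factor on which all microglia depend. It held 22.9 and 40.2 scaled CPM in hC4A/A, 139.7, 33.8, 71.5 and 67.2 in hC4B/-, and 113, 51.0, 87.9, 136 and 142 in hC4A/-. It held 98.9, 69.0, 45.2, 35.5 and 204 in C4-/-, and 43.7, 30.6, 112 and 38.6 in WT. The only separation was that both hC4A/A values lay under all 5 hC4A/- values. The log2 fold change was -1.76 ± 0.90 (SE, edgeR's quasi-likelihood test, adjusted p = 0.456). It was -2.27 without the broad libraries, among them hC4A/A replicate 2, which left 1 hC4A/A library. In hC4A/A against hC4A/-, 9.17% of all tested genes had groups that did not overlap in either direction, and Spi1 and Sall1 were 2 of the 9.

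Runx1 encodes a partner of PU.1 that is needed to make blood and myeloid cells. It held 152 and 70.0 scaled CPM in hC4A/A, 97.4, 79.6, 43.6 and 132 in hC4B/-, and 179, 68.2, 104, 94.8 and 155 in hC4A/-. It held 231, 139.9, 93.7, 108 and 127 in C4-/-, and 195, 146, 333 and 234 in WT. All 4 hC4B/- values lay under all 4 WT values, while the other genotypes overlapped WT. Those genotypes were lower than WT too, with log2 fold changes of -0.70 ± 0.59 in C4-/-, -0.91 ± 0.59 in hC4A/- and -1.03 ± 0.80 in hC4A/A. With the broad libraries left out these were -0.71, -0.83 and -0.57, the last with 1 hC4A/A library. The log2 fold change of hC4B/- over WT was -1.36 ± 0.64 (unadjusted p = 0.0406, Benjamini-Hochberg adjusted p = 0.377 by edgeR's quasi-likelihood test). Without the broad libraries, which were 2 of the 4 of hC4B/-, it was -0.75 (edgeR adjusted p = 0.751).

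Cebpa encodes C/EBPα, which starts the myeloid program from blood progenitors. It was thinly covered, at 3 to 73 counts a library. It held 8.71 and 47.9 scaled CPM in hC4A/A, 8.12, 45.8, 30.6 and 8.77 in hC4B/-, and 9.66, 2.15, 6.87, 4.68 and 12.6 in hC4A/-. It held 26.5, 2.80, 47.8, 8.59 and 22.0 in C4-/-, and 4.34, 2.14, 18.4 and 8.13 in WT. No pair of genotypes was free of overlap, and the 4 highest values were those of the broad libraries. Cebpa had the smallest adjusted p of the 9 in the test across all 5 genotypes (0.592), and the largest fold changes, such as 1.94 ± 1.05 on the log2 scale in hC4A/A over hC4A/- (adjusted p = 0.489 by edgeR's quasi-likelihood test). That value was 0.23 without the broad libraries, 0.31 without hC4A/A replicate 2 alone and 2.78 without hC4A/A replicate 1.

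Irf8 encodes a factor that binds with PU.1 and that microglia need for normal maturation and reactivity. It held 510.1 and 97.2 scaled CPM in hC4A/A, 435, 124, 139.5 and 380.0 in hC4B/-, and 543, 364, 309, 496 and 629 in hC4A/-. It held 604, 410.3, 208, 552 and 579 in C4-/-, and 520.4, 522, 1375 and 552 in WT. Every hC4A/A and hC4B/- value lay under every WT value, narrowly so for hC4A/A replicate 1, and the highest of all libraries was WT replicate 3. The log2 fold change over WT was -1.29 ± 0.93 in hC4A/A (adjusted p = 0.711) and -1.46 ± 0.73 in hC4B/- (adjusted p = 0.386), by edgeR's quasi-likelihood test. Without the broad libraries these were -0.50, with 1 hC4A/A library left, and -0.63. In that fit C4-/- and hC4A/- were at similar values over WT, -0.53 and -0.56. The hC4A/A value was -2.79 without replicate 1 of hC4A/A, and the hC4B/- value was -0.97 without WT replicate 3.

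Sall1 encodes the factor that, among brain macrophages, marks microglia. It held 153 and 219 scaled CPM in hC4A/A, 91.4, 326, 183 and 124 in hC4B/-, and 84.9, 103, 101, 65.0 and 72.1 in hC4A/-. It held 211, 69.9, 404, 103 and 189.7 in C4-/-, and 119.8, 152, 131 and 150.3 in WT. The 5 hC4A/- values were the lowest set, averaging 85.1 ± 16.8 (SD, n = 5) against 138 ± 15.4 in WT (n = 4), with no overlap. This gap had a log2 fold change of -0.70 ± 0.61 and an adjusted p of 0.968 by edgeR's quasi-likelihood test, and it involved no broad library (-0.64 without them). hC4A/A lay above both hC4A/- and WT, although its lower value exceeded the highest WT value only narrowly and its higher value, 219, came from the broad replicate 2. The log2 fold change of hC4A/A was 1.13 ± 0.73 over hC4A/- (adjusted p = 0.590) and 0.43 ± 0.78 over WT (adjusted p = 0.901), by edgeR's quasi-likelihood test. Without the broad libraries, which left 1 hC4A/A library, these were 0.73 and 0.09. Against C4-/-, the log2 fold change of hC4A/- was -1.20 ± 0.58 (unadjusted p = 0.0485, adjusted p = 0.465 by edgeR), and -0.42 without the broad C4-/- replicate 3.

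Maf encodes c-MAF, a factor of mature tissue macrophages. It held 1490.4 and 144 scaled CPM in hC4A/A, 1035, 175, 581 and 1090.4 in hC4B/-, and 819, 1059.6, 1225, 842 and 974 in hC4A/-. It held 705, 1531, 237, 1256 and 712 in C4-/-, and 1188, 1216, 729 and 1245 in WT. All genotypes overlapped each other. The 4 lowest values were the broad libraries, and the hC4A/A values were 10.4-fold apart.

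Mef2a and Mef2c encode MADS-box factors that bind beside PU.1 at microglial enhancers, and Mef2c restrains the response of microglia to inflammation. Mef2a held 453 and 244 scaled CPM in hC4A/A, 311, 240.0, 169 and 206 in hC4B/-, and 481, 375, 342, 417 and 475 in hC4A/-. It held 412, 302, 304, 553 and 433 in C4-/-, and 341, 590.1, 318 and 439.6 in WT. All hC4B/- values of Mef2a lay under all values of hC4A/- and of WT. The gap to WT was narrow, at 311 in hC4B/- replicate 1 against 318 in WT replicate 3. The hC4B/- replicates 1 and 4, which are not broad, held 311 and 206. The log2 fold change of hC4B/- over WT was -0.87 ± 0.63 (adjusted p = 0.527) and that of hC4A/- over hC4B/- was 0.85 ± 0.61 (adjusted p = 0.488), by edgeR's quasi-likelihood test. Without the broad libraries they were -0.63 and 0.61.

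Mef2c held 713 and 97.2 scaled CPM in hC4A/A, 543, 158, 174 and 358 in hC4B/-, and 692, 582, 568, 484 and 799 in hC4A/-. It held 882, 836, 168, 510.3 and 659 in C4-/-, and 635, 531, 651 and 637 in WT. The 4 lowest values were again the broad libraries, and the next lowest was hC4B/- replicate 4. No pair of genotypes was free of overlap. Its largest log2 fold change, 1.02 ± 0.70 in hC4A/- over hC4B/-, had an adjusted p of 0.470 by edgeR's quasi-likelihood test. It was 0.38 without the broad libraries.

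Tfe3, the X-linked member and the one tied to lysosomes rather than to lineage, ranged from 20.4 to 129 scaled CPM. Both ends of that range lay in hC4A/-, which averaged 61.96 ± 41.4 (SD, n = 5), against 60.8 ± 26.5 in WT (n = 4). The other means were 43.8 ± 14.997 in hC4A/A, 49.6 ± 13.04 in hC4B/- and 80.6 ± 38.9 in C4-/-, and no pair of genotypes was free of overlap. Xist, the transcript of the silenced X, exceeded the Y-linked Ddx3y in 13 libraries, among them all 4 of hC4B/-. Tfe3 held 20.4 to 129 scaled CPM in those 13 and 31.4 to 117 in the other 7.

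**Figure D2:**
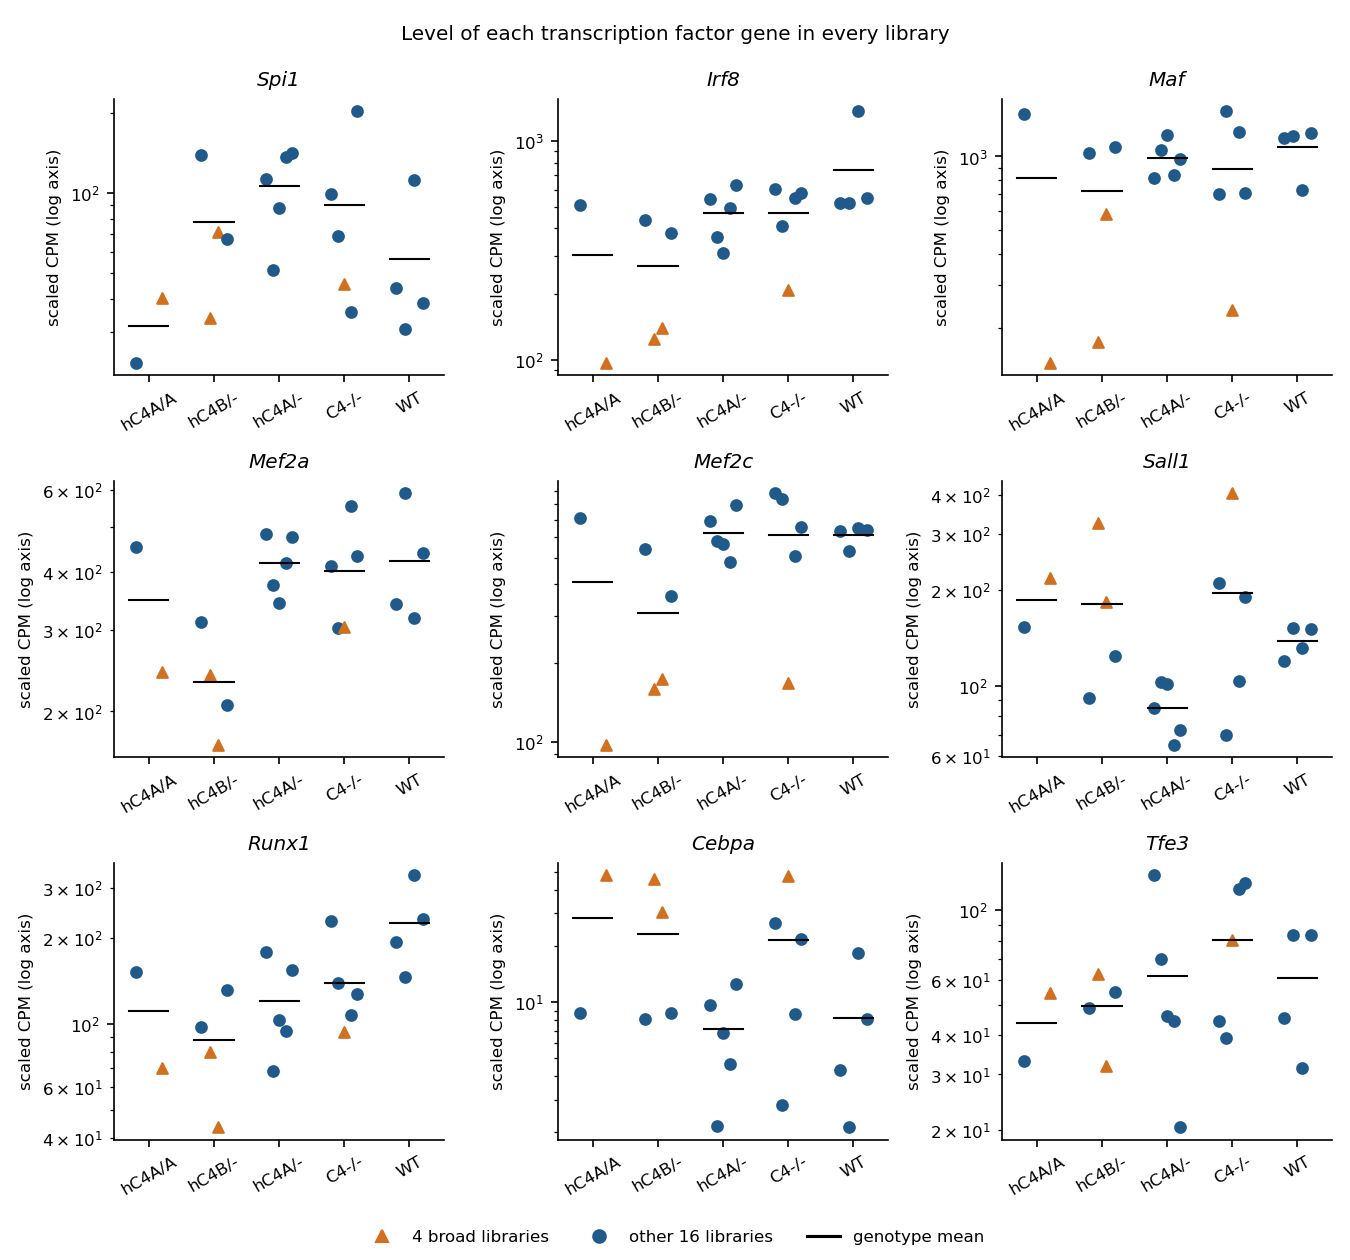
Scaled CPM (log axis) of each gene in every library, by genotype, with bars at the genotype means. Triangles mark the 4 broad libraries. The broad libraries hold the lowest values of Irf8, Maf and Mef2c and the highest of Cebpa, and hC4A/- is the lowest set for Sall1.

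Across the 9 pairwise comparisons of genotypes, edgeR's quasi-likelihood test called 0 of the 81 values of these genes at an adjusted p under 0.05. In each of the 9, it called 0 of 12680 genes, or 0%. Of the 81 tests over all 20 libraries, 2 had an unadjusted p under 0.05. These were Runx1 in hC4B/- over WT and Sall1 in hC4A/- over C4-/-, given above. Over all tested genes, 13.1% had an unadjusted p under 0.05 in hC4B/- over WT, 10.7% in hC4A/- over C4-/-, and 2.17% to 16.7% across the 9 comparisons. DESeq2 and limma-voom also called 0 of these genes. The test across all 5 genotypes called 15 genes, 0.118% of those tested, and none of the 9. The comparisons against WT share the 4 WT libraries and those against C4-/- the 5 C4-/- libraries, so their values are not independent. With standard errors of 0.56 to 1.11 on the log2 scale, values that miss the threshold do not show that the genotypes had equal levels.

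In C4-/- over WT, 4 of the 9 log2 fold changes were above 0 and 5 below, with a median of -0.01 against 0.33 for all tested genes. None of the 9 was free of overlap, as were 1.41% of all tested genes. Cebpa stood highest at 1.39 ± 0.92, and Runx1 lowest at -0.70 ± 0.59, with adjusted p of 0.668 and 0.728 by edgeR. In hC4A/- over WT, 3 were above 0 and 6 below, with a median of -0.15 against -0.05 for all genes. Spi1 stood highest at 0.92 ± 0.66 and Runx1 lowest at -0.91 ± 0.59. Sall1 was the 1 gene free of overlap, as were 1.4% of all tested genes. In C4-/- and in hC4A/-, all 7 neutrophil markers tested were lower than in WT, each with an unadjusted p under 0.05 by edgeR. Their smallest adjusted p was 0.529 in C4-/- and 0.321 in hC4A/-. The marker sums overlapped, at 0 to 146 scaled CPM in C4-/- and 0.537 to 114 in hC4A/-, against 102 to 1424 in WT. The part of neutrophil markers in these values of the 9 genes was not tested.

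In hC4B/- over WT, 3 were above 0 and 6 below, with a median of -0.60 against 0.18 for all genes. Irf8, Mef2a and Runx1 were free of overlap, all lower in hC4B/-, while 3.75% of all tested genes were free of overlap in either direction. The sum of the astrocyte markers did not overlap between these groups either, at 44.2 to 257 scaled CPM in hC4B/- and 315 to 613 in WT. That sum follows Slc1a3, at 30.6 to 253 against 313 to 607. Of the 4 astrocyte markers tested, 3 had log2 fold changes above 0 and 1 below. Neutrophil markers summed to 0 to 176 in hC4B/- and 102 to 1424 in WT. The part of both lists in the values of Irf8, Mef2a and Runx1 was not tested. Without the broad libraries, 3 were again above 0 and 6 below. The median of the 9 was then -0.190, close to the -0.195 of all tested genes. In hC4A/A over WT, 2 were above 0 and 7 below, with a median of -0.48 against 0.18. Irf8 below and Sall1 above WT were free of overlap, as were 11.2% of all tested genes with these groups of 2 and 4. The marker sums of 4 other cell types did not overlap either. Neutrophil markers summed to 47.9 to 70.9 scaled CPM in hC4A/A and 102 to 1424 in WT, and oligodendrocyte markers to 50.5 to 108 in hC4A/A and 111 to 167 in WT. Border macrophage markers summed to 39.3 to 54.4 in hC4A/A and 11.5 to 29.7 in WT, and neuron markers to 36.3 to 61.3 in hC4A/A and 3.07 to 33.4 in WT. The 2 hC4A/A libraries reached these last 2 sums through different genes. Mrc1 held 38.7 in replicate 1 and 11.7 in the broad replicate 2, and Snap25 held 60.3 and 1.30. The part of these lists in the values of Irf8 and Sall1 was not tested. Without the broad hC4A/A replicate 2 and the other broad libraries, 5 of the 9 were above 0 and 4 below. The median was then 0.01 against -0.30 for all tested genes, with 1 hC4A/A library left.

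Against C4-/-, hC4A/- had a median of -0.01, hC4B/- of -0.67 and hC4A/A of -0.33, against -0.32, -0.03 and -0.02 for all tested genes. In hC4B/- and in hC4A/A, 8 of the 9 lay below 0. With the broad libraries left out this was so of 7 in hC4B/-, whereas in hC4A/A 6 of the 9 lay above 0. The medians of the 9 were then -0.10 in hC4B/- and 0.10 in hC4A/A, which had 1 library left. Those of all tested genes were lower, at -0.23 and -0.41. None of the 9 was free of overlap in any of these 3, in which 0.97%, 0.741% and 4.26% of all tested genes were. In hC4A/- over hC4B/-, 7 of the 9 were above 0, with a median of 0.45 against -0.14, and Mef2a was the 1 gene free of overlap, as were 2.49% of all tested genes. Sall1 and Cebpa were the exceptions, at -1.09 ± 0.61 and -1.67 ± 0.90. The broad libraries left out, 4 were above 0 and 5 below, with a median of -0.04 against 0.18 for all tested genes. Among those below 0 were Spi1 at -0.04, Maf at -0.21 and Runx1 at -0.08, while Sall1 was at -0.45 and Cebpa at -0.39. The sum of the astrocyte markers did not overlap between these groups, at 269 to 519.7 scaled CPM in hC4A/- and 44.2 to 257 in hC4B/-. That sum follows Slc1a3, at 255 to 518 against 30.6 to 253. Of the 4 astrocyte markers tested, 2 had log2 fold changes above 0 and 2 below. The part of these markers in the values of the 9 genes was not tested. In hC4A/A over hC4A/-, the comparison of dose, 2 were above 0 and 7 below, with a median of -0.27 against 0.17. In the fit lacking the broad libraries, which leaves 1 hC4A/A library, 7 were above 0 and 2 below. The median was then 0.11 against -0.35 for all tested genes.

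Leaving out the 4 broad libraries turned the sign of 26 of the 81 values, with a median shift of 0.46. WT and hC4A/- hold no broad library, C4-/- holds 1 of 5, hC4B/- 2 of 4 and hC4A/A 1 of 2. Cebpa in hC4B/- over WT was 1.49 ± 0.96 with them and 0.34 without, and Maf was -0.60 ± 0.79 with them and 0.08 without.

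**Figure D3:**
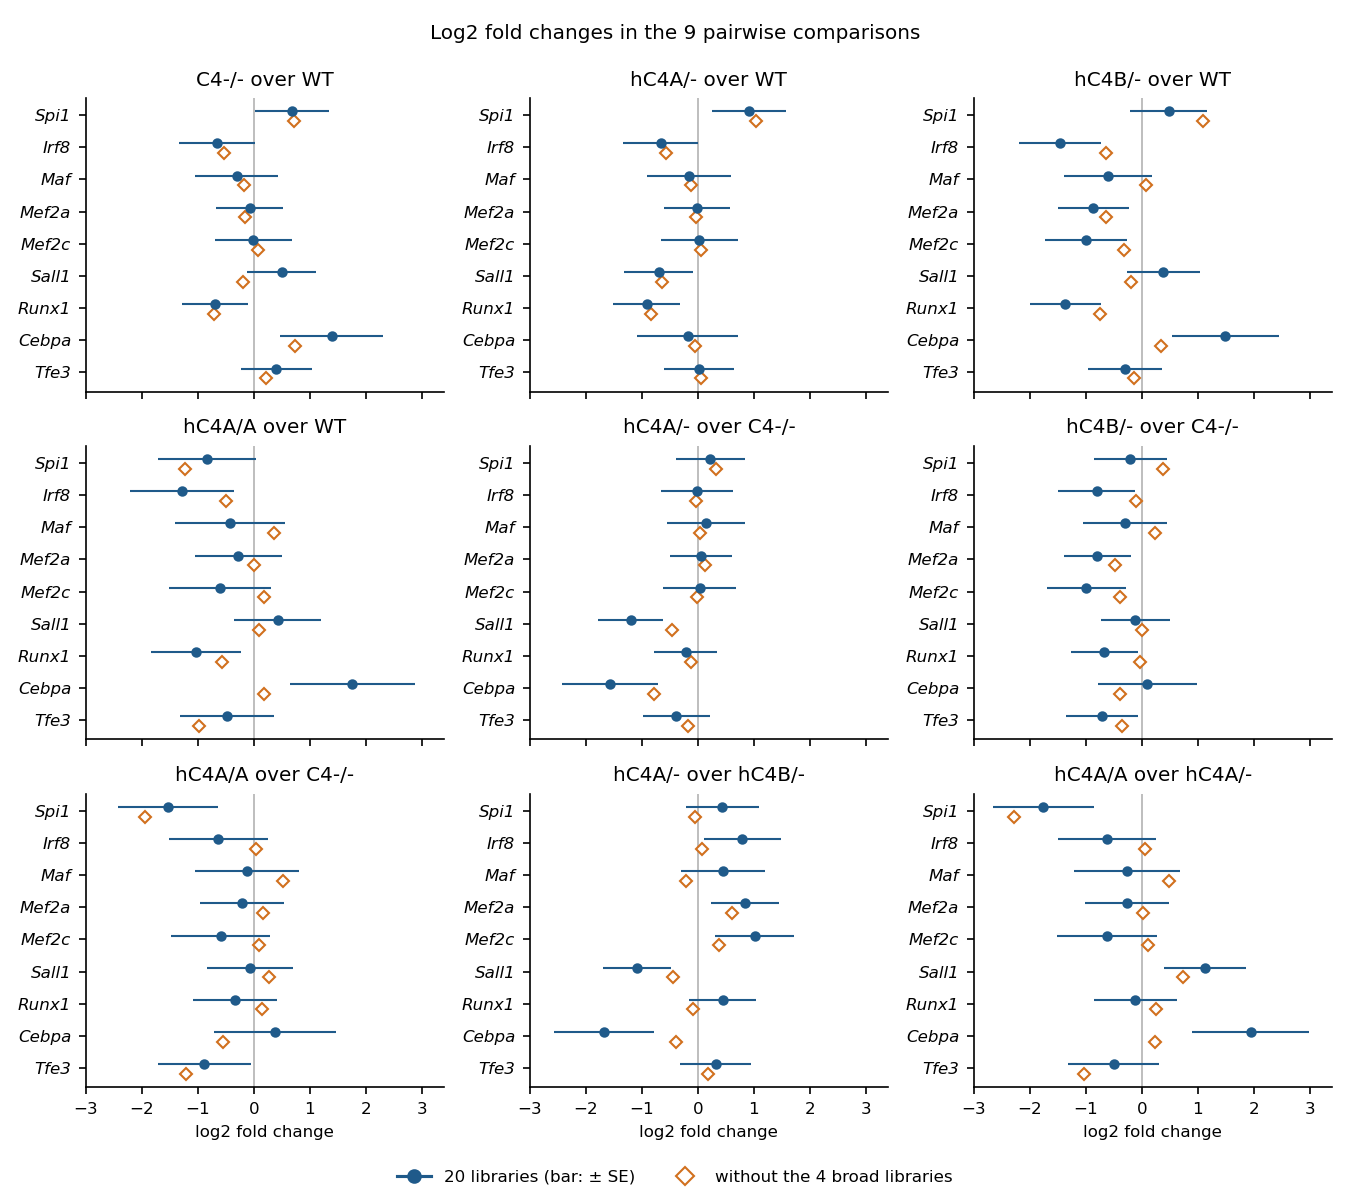
Log2 fold changes of the 9 genes in the 9 pairwise comparisons. Filled circles are the values over 20 libraries with bars of ± 1 SE, and open diamonds are the values without the 4 broad libraries, where Cebpa in hC4B/- over WT is at 0.34 in place of 1.49.

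The 4 broad libraries set the clearest pattern in these genes, given here as values with no test, since the libraries were set apart by what they detect. Irf8 held 97.2 to 208 scaled CPM in the broad libraries against 309 to 1375 in the other 16, Maf 144 to 581 against 705 to 1531, and Mef2c 97.2 to 174 against 358 to 882. Their medians were 0.253, 0.192 and 0.256 times those of the other libraries. Cebpa went the other way, with 30.6 to 47.9 against 2.14 to 26.5, a ratio of medians of 5.603. Of all tested genes, 9.47% lay above and 7.05% below the other libraries without overlap, and the median gene had a ratio of 1.47.

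Sall1 was also higher, at 183 to 404 against 65.0 to 211 scaled CPM, a ratio of medians of 2.44 with a slight overlap. Spi1, Runx1 and Mef2a had ratios of 0.544, 0.523 and 0.583, and Tfe3 of 1.24, all with overlap. Another 3 scalings were tried after these values had been seen: relative log expression (RLE), plain CPM, and plain CPM without Gm10800. Under all 3, Irf8, Maf and Mef2c kept ratios under 1, of at most 0.393, 0.268 and 0.390, and Sall1 and Cebpa kept ratios of at least 1.74 and 3.73. Freedom from overlap held for Mef2c under all 3, but was lost under at least 1 for Irf8, Maf and Cebpa. Mef2a turned to 1.01 with RLE and Tfe3 to 0.874 with plain CPM. The ratio of Sall1 to Irf8 within a library, which needs no scaling, ran from 1.31 to 2.62 among the broad libraries, and from 0.0954 to 0.349 among the other 16. Astrocyte markers summed to 44.2 to 101 scaled CPM in the broad libraries against 163 to 742, and oligodendrocyte markers to 35.4 to 68.7 against 98.2 to 362. Microglia markers, Sall1 among them, summed to 4291 to 7589.7 against 5831 to 10114. The part of these, or of the number of detected genes, in the values of the 9 genes was not tested.

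Among the 16 other libraries, 4 of the 9 genes still went with the number of genes a library detected, by Pearson's r or Spearman's rho with permutation p-values adjusted over the 9 relations. Cebpa rose with it (r = 0.77, adjusted permutation p = 0.00216, rho = 0.66, adjusted p = 0.0209), and r was 0.60 without the 2 libraries farthest from the median. Mef2c also rose with it (r = 0.64, adjusted permutation p = 0.0254, rho = 0.74, adjusted p = 0.0138), with r of 0.55 without those 2. Mef2c was thus higher with more detected genes inside the 16, although it was lowest in the broad libraries. The same held for Irf8 by rho (0.65, adjusted permutation p = 0.0209), not by r (0.58, adjusted p = 0.0694), which was 0.74 without those 2. Maf fell with it by r (-0.65, adjusted permutation p = 0.0231), not by rho (-0.51, adjusted p = 0.108), and r was -0.42 without those 2. The other 5 genes passed by neither measure. How many of all tested genes would pass was not computed, so these 4 are not set apart from genes in general. The 16 libraries hold every genotype.

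**Figure D4:**
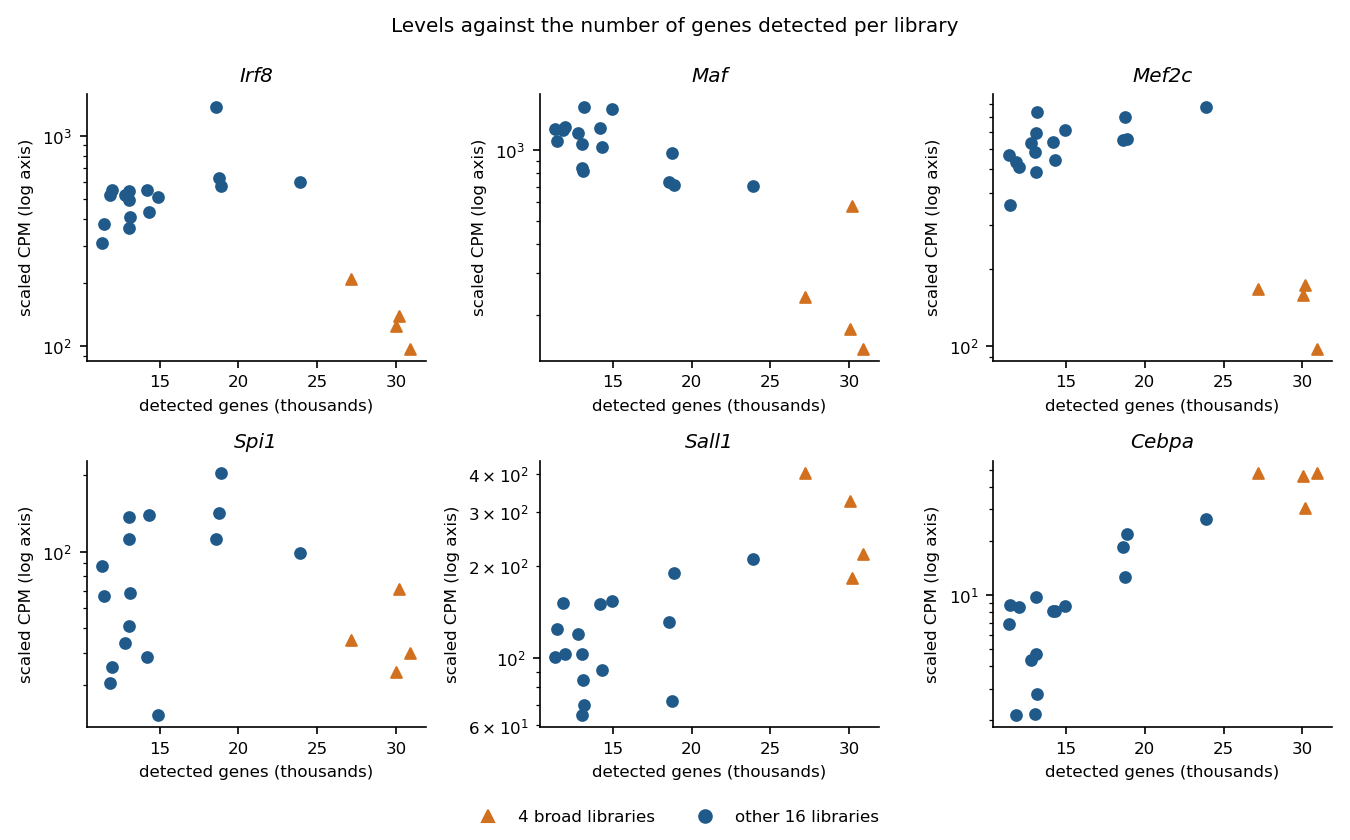
Scaled CPM (log axis) of 6 of the genes against the number of genes detected in each library. Triangles are the 4 broad libraries and circles the other 16; Irf8 and Mef2c rise within the circles and drop in the triangles, and Cebpa rises through both.

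Between the genes themselves, 2 of 36 pairs passed by Pearson's r over the 16 libraries and 0 by Spearman's rho, at adjusted permutation p under 0.05, and 5 had an unadjusted p of rho under 0.05. Spi1 and Maf ran opposite to each other (r = -0.75, adjusted permutation p = 0.0200, rho = -0.74, adjusted p = 0.0540), with r of -0.63 without the 2 libraries farthest from the median of Spi1. Irf8 and Runx1 ran together (r = 0.75, adjusted permutation p = 0.0200, rho = 0.66, adjusted p = 0.0754), with r of 0.60 without 2. The points of these relations share a library, its depth and its scaling factor, and they hold all 5 genotypes. How many pairs of all tested genes would pass was not computed.

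**Figure D5:**
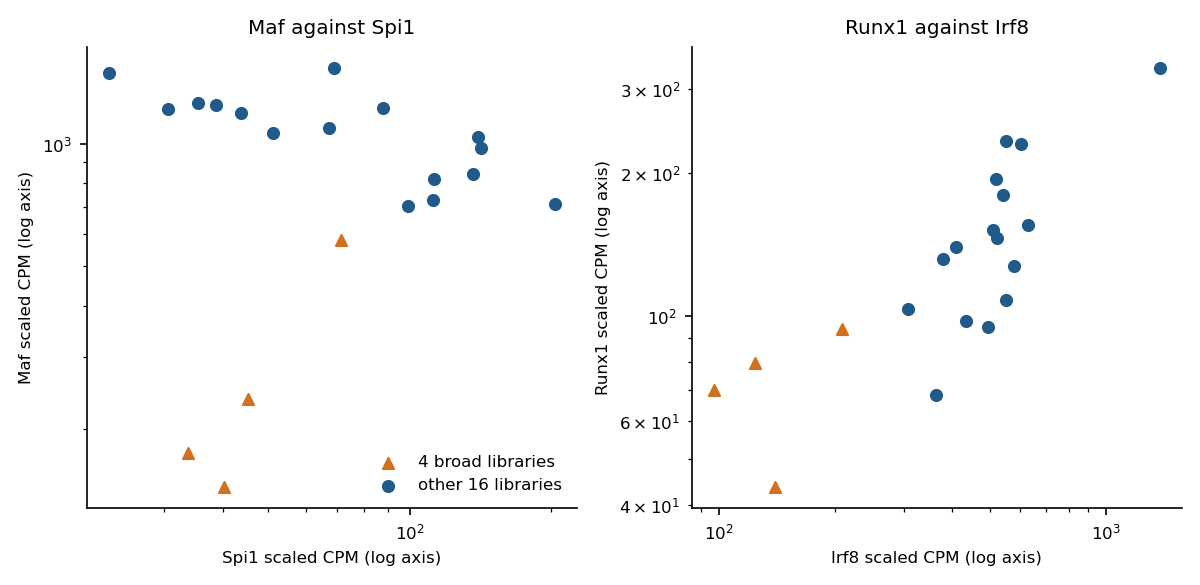
Scaled CPM (log axes) of Maf against Spi1 and of Runx1 against Irf8, 1 point per library. Over the 16 circles r is -0.75 for Maf and Spi1 and 0.75 for Runx1 and Irf8; the triangles are the broad libraries.

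For each gene, the tested gene with the most similar pattern over the 20 libraries was found by Spearman's rho, as a description among 12679 candidates. Spi1 was most like 2700062C07Rik (rho = 0.84), Irf8 like E2f3 (0.90), Maf like Ppp1r12a (0.93), Mef2a like Cd2ap (0.87) and Mef2c like Srp72 (0.92). Sall1 was most like Fads3 (0.91), Runx1 like Akr1b10 (0.88), Cebpa like Hspg2 (0.94) and Tfe3 like Gm36989 (0.80). None of these was another member of the 9, and the rho of each pair over the 16 other libraries lay between 0.74 and 0.90.

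The 4 lists of related genes held 0 calls in every comparison by edgeR's quasi-likelihood test and by limma-voom, and 1 by DESeq2, Ets2 in hC4A/- over WT (adjusted p = 0.0412). Of 27 paralogues, 21 passed the filter on low counts and 1 had an unadjusted p under 0.05 across the 5 genotypes; of 22 partners and regulators all passed and 3 had one. Of 20 other myeloid transcription factors 16 passed and 2 had one, and of 30 textbook target genes 29 passed and 1 had one. The share over all tested genes was 11.99%, so these counts lie near it or under it. In hC4B/- over WT the lists' median log2 fold changes were 0.38, -0.62, -0.67 and -0.05 in that order, against 0.18 for all tested genes.

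Among the paralogues, Sall2, the relative of Sall1, averaged 10.5 ± 14.4 scaled CPM in hC4A/A, 6.29 ± 8.05 in hC4B/-, 1.18 ± 0.93 in hC4A/-, 20.0 ± 30.4 in C4-/- and 2.00 ± 1.57 in WT (edgeR adjusted p = 0.370 across genotypes). Cebpb, a C/EBP factor of inflammation, stayed between 0 and 21.1 scaled CPM in every library. Among the partners, Hdac7, a deacetylase that represses MEF2 factors, stayed between 0 and 12.9. Smad2, which carries TGF-beta signals, averaged 26.8 ± 17.7 in hC4A/A, 7.21 ± 2.91 in hC4B/-, 5.36 ± 5.68 in hC4A/-, 4.70 ± 3.29 in C4-/- and 2.21 ± 0.68 in WT (edgeR adjusted p = 0.410). Single libraries carried some of these means. The C4-/- mean of Sall2 was 6.77 ± 8.72 (SD, n = 4) without C4-/- replicate 2, which held 72.7, and its hC4B/- mean was 2.36 ± 2.10 (n = 3) without hC4B/- replicate 2. The hC4A/- mean of Smad2 was 2.90 ± 1.62 (n = 4) without hC4A/- replicate 4.

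Ets2, an ETS factor like PU.1, averaged 16.8 ± 12.7 scaled CPM in hC4A/A, 5.45 ± 3.98 in hC4B/-, 0.936 ± 1.15 in hC4A/-, 3.93 ± 6.74 in C4-/- and 50.5 ± 89.7 in WT (edgeR adjusted p = 0.272 across genotypes), and WT replicate 3 alone held 185, without which the WT mean was 5.69 ± 6.93 (SD, n = 3). Its C4-/- mean was 0.976 ± 1.59 (n = 4) without C4-/- replicate 3, and its hC4A/- mean 0.490 ± 0.650 (n = 4) without hC4A/- replicate 5. Myb, a factor of blood progenitors that yolk sac microglia do not need, averaged 2.59 ± 3.66 in hC4A/A, 7.95 ± 6.45 in hC4B/-, 0.391 ± 0.359 in hC4A/-, 13.6 ± 23.9 in C4-/- and 0.457 ± 0.672 in WT (edgeR adjusted p = 0.337 across genotypes). Without C4-/- replicate 2, which held 55.9, its C4-/- mean was 3.03 ± 4.13 (SD, n = 4), and its WT mean was 0.135 ± 0.235 (n = 3) without WT replicate 2. Among the targets, Cybb, a subunit of the phagocyte oxidase and a PU.1 and IRF8 target, averaged 9.03 ± 10.9 in hC4A/A, 19.3 ± 31.6 in hC4B/-, 10.04 ± 20.5 in hC4A/-, 32.1 ± 43.2 in C4-/- and 202 ± 313 in WT, where WT replicate 2, the library with the most neutrophil marker RNA, held 668 (edgeR adjusted p = 0.388). Without that library its WT mean was 46.3 ± 42.3 (SD, n = 3). Its hC4B/- mean was 3.55 ± 3.62 (n = 3) without hC4B/- replicate 4, its hC4A/- mean 0.878 ± 1.76 (n = 4) without hC4A/- replicate 3, and its C4-/- mean 19.3 ± 37.3 (n = 4) without C4-/- replicate 4. The part of the neutrophil markers in the level of Cybb was not tested. Sqstm1, an autophagy receptor that TFE3 and TFEB drive, averaged 32.1 ± 19.8 in hC4A/A, 27.9 ± 18.2 in hC4B/-, 88.6 ± 38.5 in hC4A/-, 46.9 ± 20.7 in C4-/- and 97.4 ± 86.1 in WT (edgeR adjusted p = 0.449), where the mean was 58.1 ± 43.1 (n = 3) without WT replicate 3.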

How the data were processed

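The authors deposited 1 table of whole-number read counts per gene for each of the 20 libraries. The submitters' processing notes name edgeR, STAR and the GRCm38 build, with versions not given in the sources used here. Counts of the unstranded column were used, since the sense column held 49.7% to 49.9% of strand-assigned counts. Rows naming no gene (unmapped, multimapping, no feature, ambiguous) were left out; unmapped reads were 14.8% to 42.1% of those listed. GENCODE M21 named 54809 of the 54838 identifiers.

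Genes were kept by edgeR's filterByExpr (minimum count 10) and fitted with edgeR 4.0.16 in R 4.3.3: TMM scaling, quasi-likelihood test, 1 coefficient per genotype over all 20 libraries, Benjamini-Hochberg adjustment over 12680 genes, threshold 0.05. The dispersion was 1.07, with 15 residual degrees of freedom. DESeq2 1.42.0, limma-voom (limma 3.58.1) and other settings were alternatives, and scripts were tested on simulated data. Correlations used 100000 permutations on log2 scaled CPM with a prior count of 2. Libraries of 1 genotype differed by more than counting noise (chi-square of at least 26.3 per degree of freedom).

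The genes and lists were chosen with earlier results of these data known. Beyond the 9 genes, the text names genes called from a list, otherwise the 2 of smallest p across genotypes, and the gene most like each of the 9. Those from the marker lists are Sall1 and Gpr34, Siglec1 and Mrc1, Vcan and Chil3, Mmp8 and Ngp, Cd79b, Rbfox3 and Snap25, Gja1 and Slc1a3, Cnp and Mbp, and Pecam1 and Flt1, with adjusted p from 0.0791 (Mmp8) upward in edgeR's test across genotypes.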

Additional observations from a re-analysis of the deposited data

Results flagged for a closer look

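In groups of 4 or 5 libraries, 36 sets of values were checked for a library far from the others of its genotype by Dixon's ratio, which chance exceeds in about 1 of 20 sets. It was exceeded in 4, all in WT. WT replicate 3 held 112 scaled CPM of Spi1, against 30.6 to 43.7 in the other WT libraries, and 1375 of Irf8, against 520.4 to 552. It also held the lowest Maf of the group, at 729, against 1188 to 1245. WT replicate 2 held 531 scaled CPM of Mef2c, the lowest of the group, against 635 to 651. WT replicate 3 detected 18586 genes, the most in its group.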

How the results depend on the processing

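The 9 genes gave 0 calls under all 28 other settings, where their smallest adjusted p was 0.148 (Cebpa in hC4A/A over hC4A/-, without hC4A/A replicate 1). Counts over all genes moved. Without a filter on low counts, 26, 65, 28 and 3 genes were called in C4-/-, hC4A/-, hC4B/- and hC4A/A over WT, 53 and 16 in hC4A/- and hC4B/- over C4-/-, 36 in hC4A/- over hC4B/- and 697 across genotypes. DESeq2 called 24, 39, 55 and 2 over WT, 15 and 3 over C4-/- in the same order, 93 in hC4A/- over hC4B/-, 1 in hC4A/A over hC4A/- and 71 across genotypes. limma-voom called 1 in hC4A/- over WT, 1 in hC4A/- over C4-/-, 6 in hC4A/A over hC4A/- and 0 across genotypes. Fits of only the 2 groups called 1 each in hC4A/- and hC4B/- over WT and in hC4A/- over hC4B/-. Without the broad libraries, hC4A/- over WT had 1 call and the test across genotypes 2, and with RLE scaling that test had 24. With RLE the median gene had a log2 fold change of 0.53 in hC4B/- over WT, against 0.18 with TMM, and of 0.48 in hC4A/A over WT, against 0.18.

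Leaving out 1 library gave 0 to 2 calls in hC4B/- over WT, 0 to 1 in hC4A/A over WT, 0 to 8 in hC4A/- over hC4B/- (8 without hC4B/- replicate 1, 5 without replicate 4) and 0 to 34 across genotypes (0 without hC4B/- replicate 3, 34 without hC4B/- replicate 4, 30 without hC4A/A replicate 2, 2 without WT replicate 1, 8 without WT replicate 4). The cause was not tested. A group left with 1 library was assumed to vary like the others. Sall1 in hC4A/A over WT was -0.11 without a filter, against 0.43. Of the 81 fold changes, 26 changed sign without the broad libraries, 15 without hC4A/A replicate 2 and 0 to 9 under the other settings.

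Same-numbered libraries did not deviate together as a set (33 pairs, correlations from -0.30 to 0.70, median 0.01, 5 over 0.1). Pairs of different numbers ran from -0.71 to 0.71, and 6 of 20 libraries deviated most like one of their own number. The numbers were therefore not taken as pairs. With groups of 2 to 5 libraries this check cannot exclude pairing. With the replicate block, 0 genes were called across genotypes, against 15 without it, and 0 of the 9.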
